A study of Saccharomyces cerevisiae with 5 samples.

Results

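The genes described here are the 31 budding yeast (Saccharomyces cerevisiae) genes for sterol synthesis, esterification, uptake and their regulators, out of 6205 open reading frames (ORFs) on the arrays. They were listed by gene name, with earlier results of these data known, and all 31 were found by ORF identifier, with the same gene name in the scanner files of arrays 4 and 5. The list holds 24 enzymes and partners of synthesis, 2 esterification enzymes, 3 regulators and 2 uptake transporters. Each of 5 two-colour arrays set RNA of cells held for 1 hour in rich YP medium with 20% glucose against RNA of cells held for 1 hour in YP with 2% glucose. Both cultures came from an overnight culture in YP with 2% glucose, diluted to the same density. The RNA labelled 20% was in Cy5 on arrays 2 and 5 and in Cy3 on arrays 1, 3 and 4. No strain is given in the labels used here. Whether the arrays hold separate cultures or the same RNA with dyes swapped is not stated in the labels. The p-values therefore cover the spread from array to array only, and part or all of that spread may be technical.

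Ergosterol is the main sterol of yeast membranes. Its synthesis starts from acetyl-CoA, runs through mevalonate to farnesyl diphosphate, then through squalene to lanosterol, and ends with a series of demethylation, methylation, isomerisation and desaturation steps in the endoplasmic reticulum. Several of these steps use oxygen and heme. The zinc cluster factors Upc2 and Ecm22 are known to raise transcription of the pathway when sterols are scarce. Sterols are stored as esters in lipid droplets, and yeast takes up sterols from the medium mainly when oxygen is absent. In yeast, hyperosmotic stress is known to lower several ERG transcripts through the kinase Hog1 and the repressors Mot3 and Rox1.

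All values are log2 of RNA labelled 20% over RNA labelled 2%, so a positive value is a higher ratio in the RNA labelled 20%. GPD1, the osmostress-induced glycerol 3-phosphate dehydrogenase, stood at -6.88 and -6.51 on arrays 4 and 5, against -2.02, -1.78 and -2.42 on arrays 1 to 3. HXT1, a hexose transporter known to be induced by high glucose, stood at -2.14 and -1.95 on arrays 4 and 5, against -2.36, -2.73 and -3.70 on arrays 1 to 3. Both run opposite to their known response, so the RNAs are named by their labels throughout, and if the labels were exchanged every sign below would turn. Across ORFs, arrays 4 and 5 correlated at 0.951, arrays 1 to 3 at 0.597 to 0.861, and arrays of the 2 sets with each other at 0.256 to 0.374. For this reason the sets are shown apart. The arrays hold 5373 to 5804 values each. Of the 31 sterol genes 29 have a value on every array, while ERG7 lacks array 2 and ARE1 lacks array 5. Bulk RNA was measured, so fewer cells with a transcript and less of it per cell cannot be told apart.

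The sterol genes were spread between a lower and a higher ratio on every array, and the pathway did not move as a block. The median over the sterol genes was 0.01 and 0.06 on arrays 4 and 5, against 0.12, 0.21 and 0.17 on arrays 1 to 3, while the median over all ORFs lay between -0.01 and 0.00 on each array. Over all 5 arrays (limma, with terms for glucose label and dye), 2 of 31 sterol genes were called higher and 0 lower at a Benjamini-Hochberg adjusted p below 0.05. That is 6.45% of them, against 3.69% of the 5447 ORFs tested (2.24% higher and 1.45% lower). At an unadjusted p below 0.05, limma gave 8 higher and 2 lower, together 32.3% of the sterol genes against 28.5% of ORFs. The median of the fitted values was 0.06 for the sterol genes and 0.00 for all ORFs, and the median size of the change was 0.17 and 0.18.

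**Figure D1:**
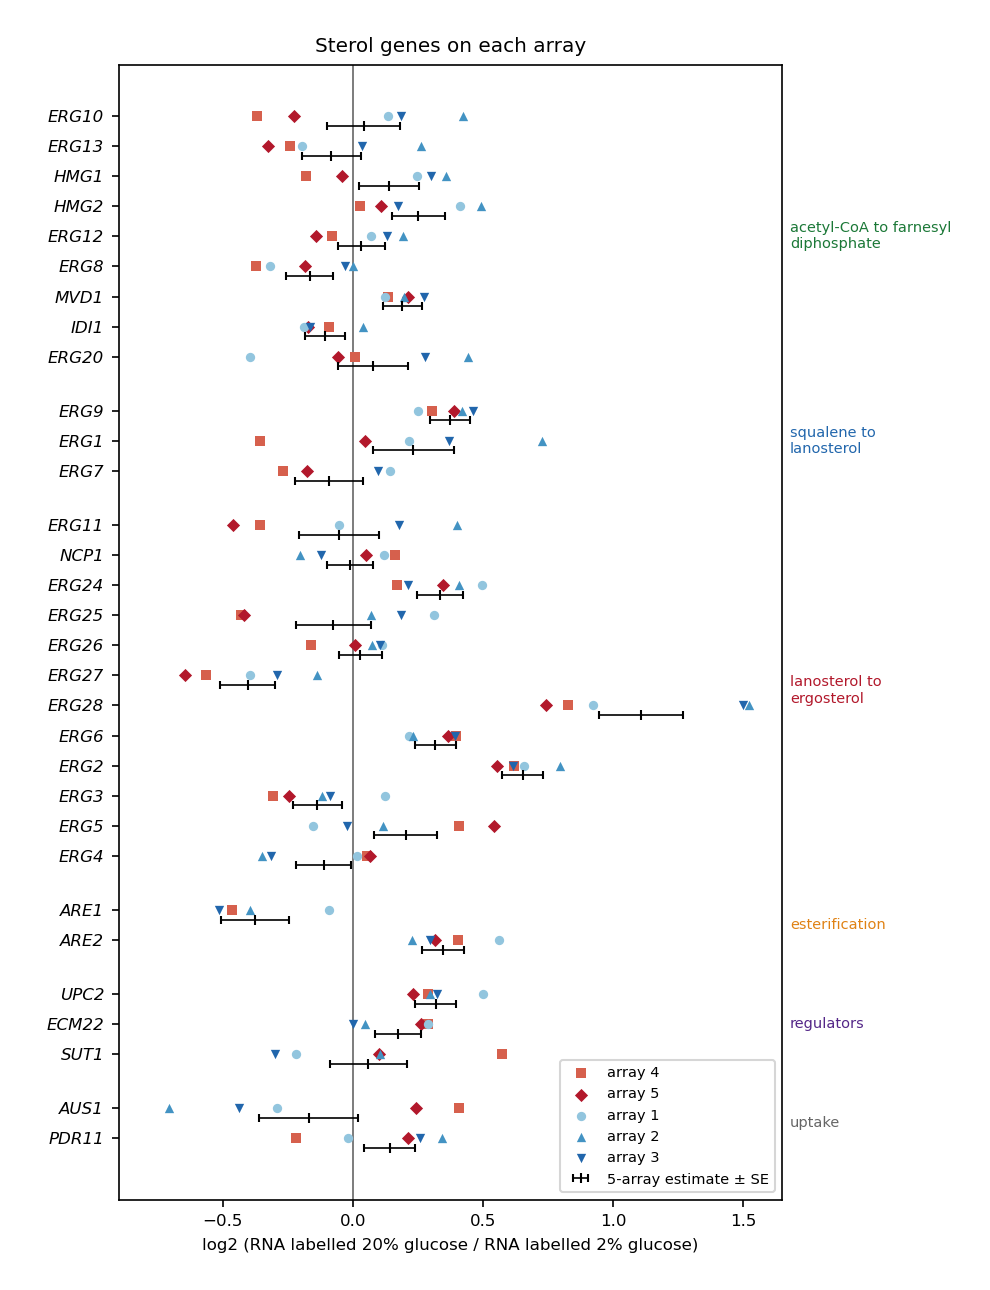
Each row is 1 sterol gene, grouped by its step in the pathway, with its log2 ratio (RNA labelled 20% over RNA labelled 2%, horizontal axis) on arrays 4 and 5 in red and on arrays 1 to 3 in blue. The black bar under each row is the 5-array limma estimate with its standard error. ERG28 and ERG2 lie to the right of 0 on 5 of 5 arrays, and ERG27 lies to the left of 0 on 5 of 5.

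Both called genes belong to the stretch from lanosterol to ergosterol. ERG28 (YER044C, chromosome V, 447 bases) encodes a membrane scaffold that holds the sterol demethylation enzymes together. Its ratio was 0.83 and 0.74 on arrays 4 and 5, against 0.92, 1.52 and 1.50 on arrays 1 to 3. All 5 values were positive, and those of arrays 4 and 5 lay below those of arrays 1 to 3 without overlap. The 5-array estimate was 1.11 ± 0.16 (SE, limma adjusted p = 0.0422), a 2.16-fold higher ratio and rank 74 from the highest of 5447 ORFs. The call was lost on leaving out replicate 1 (limma adjusted p = 0.088), 2 (0.12), 3 (0.14) or 5 (0.135), with estimates between 0.91 and 1.30 over the arrays left out in turn. In the same order, those fits called only 3, 2, 0 and 3 of all ORFs, against 201 with all 5 arrays. The loss is therefore not particular to ERG28. It was also lost with the scanner ratios of arrays 4 and 5 (1.04, adjusted p = 0.0525). The spot read 1681 intensity units above background in the RNA labelled 20% and 1093 in the RNA labelled 2% on array 4. On array 5 it stood 12.8 times over local background in the RNA labelled 20% and 6.88 times in the RNA labelled 2%.

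ERG2 (YMR202W, chromosome XIII, 669 bases) encodes the sterol isomerase. It stood at 0.62 and 0.55 on arrays 4 and 5, against 0.66, 0.79 and 0.62 on arrays 1 to 3. The values were close together on all 5 arrays, and the sets overlapped. The estimate was 0.65 ± 0.08 (SE, limma adjusted p = 0.0323), a 1.57-fold higher ratio and rank 256 from the highest. Leaving out replicate 1 (limma adjusted p = 0.0731), 2 (0.126), 3 (0.14) or 5 (0.159) ended this call, with estimates from 0.59 to 0.71. As given for ERG28, those fits called 0 to 3 of all ORFs. Its spot read 3921 units in the RNA labelled 20% and 2587 in the RNA labelled 2% on array 4, and 3456 and 1849 on array 5. With arrays 4 and 5 averaged and counted as 1 replicate, neither ERG28 nor ERG2 was called (limma adjusted p = 0.118 each). That setting called 3 of 5089 ORFs.

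A positive ratio on 5 of 5 arrays was found for 9 of the 29 sterol genes with 5 values, which is 31% against 16.7% of the 4693 ORFs with 5 values. These were HMG2, MVD1, ERG9, ERG24, ERG28, ERG6, ERG2, ARE2 and UPC2. A negative ratio on 5 of 5 arrays was found for ERG8 and ERG27, which is 6.9% against 19.8% of ORFs. Most of these ratios were small. Apart from ERG28 and ERG2, the 5-array estimate farthest from 0 was that of ERG27, at -0.40 or 1.32-fold lower.

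The steps from acetyl-CoA to farnesyl diphosphate are shared with the synthesis of ubiquinone, dolichol and prenyl groups. None of their 9 genes was called over 5 arrays by limma, against 3.69% of ORFs. Of these 9 genes, 1 (MVD1) had an unadjusted limma p below 0.05 (11.1%, against 28.5% of ORFs). Their median was -0.09 and -0.14 on arrays 4 and 5, against 0.07, 0.26 and 0.17 on arrays 1 to 3. ERG10, the acetoacetyl-CoA thiolase of the first step, stood at -0.37 and -0.23 on arrays 4 and 5, against 0.14, 0.42 and 0.19 on arrays 1 to 3. It was negative in one set and positive in the other. ERG13, the HMG-CoA synthase, measured -0.24 and -0.33 on arrays 4 and 5, against -0.19, 0.26 and 0.03 on arrays 1 to 3. Again both values of arrays 4 and 5 lay below those of arrays 1 to 3.

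HMG-CoA reductase, the main control point of the pathway, is encoded by HMG1 and HMG2. HMG1 had -0.18 and -0.04 on arrays 4 and 5, against 0.25, 0.36 and 0.30 on arrays 1 to 3. HMG2 had 0.03 and 0.11 on arrays 4 and 5, against 0.41, 0.49 and 0.17 on arrays 1 to 3. In both genes the sets did not overlap. The ratio of HMG1 minus that of HMG2 averaged -0.11 ± 0.13 (SD, n = 5 arrays), negative on 4 arrays and positive on 1, so the pair did not differ beyond the spread between arrays.

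Mevalonate is phosphorylated by ERG12 (mevalonate kinase) and ERG8 (phosphomevalonate kinase) and decarboxylated by MVD1. ERG12 was at -0.08 and -0.14 on arrays 4 and 5, against 0.07, 0.19 and 0.13 on arrays 1 to 3, without overlap. ERG8 was at -0.37 and -0.18 on arrays 4 and 5, against -0.32, -0.0007 and -0.03 on arrays 1 to 3. MVD1 was at 0.13 and 0.21 on arrays 4 and 5, against 0.12, 0.20 and 0.27 on arrays 1 to 3. MVD1 thus had nearly the same small positive ratio everywhere, while ERG8 was nearest to 0 on arrays 2 and 3. IDI1, the isopentenyl diphosphate isomerase, ranged from -0.19 to 0.04 over the 5 arrays. ERG20, the farnesyl diphosphate synthase, was at 0.01 and -0.06 on arrays 4 and 5, against -0.40, 0.44 and 0.28 on arrays 1 to 3, the widest spread of any mevalonate-step gene.

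Squalene synthase, squalene epoxidase and lanosterol synthase commit farnesyl diphosphate to sterols. ERG9, the synthase, was at 0.30 and 0.39 on arrays 4 and 5, against 0.25, 0.42 and 0.46 on arrays 1 to 3. Its 5-array estimate of 0.37 ± 0.08 (SE) came close to the threshold without passing it (limma adjusted p = 0.0577). ERG1, the oxygen-dependent epoxidase and target of allylamine drugs, was at -0.36 and 0.05 on arrays 4 and 5, against 0.22, 0.73 and 0.37 on arrays 1 to 3. Array 4 was the only one with a negative ERG1 ratio, and the sets did not overlap. ERG7, the lanosterol synthase, was at -0.27 and -0.18 on arrays 4 and 5, against 0.14 and 0.10 on arrays 1 and 3.

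In the stretch from lanosterol to ergosterol, 2 of 12 genes were called (ERG28 and ERG2), which is 16.7% against 3.69% of ORFs. The stretch did not move as a whole: its 12 estimates had a median of 0.01, with 6 positive and 6 negative. ERG11, the lanosterol demethylase inhibited by azole drugs, was at -0.36 and -0.46 on arrays 4 and 5, against -0.06, 0.40 and 0.18 on arrays 1 to 3. NCP1, the reductase that passes electrons to Erg11, was at 0.16 and 0.05 on arrays 4 and 5, against 0.12, -0.20 and -0.12 on arrays 1 to 3. These partners did not share a direction within either set. ERG24, a sterol reductase, was at 0.17 and 0.35 on arrays 4 and 5, against 0.50, 0.41 and 0.21 on arrays 1 to 3. Its estimate of 0.34 ± 0.09 (SE) had a limma adjusted p of 0.0799.

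The 3 enzymes that Erg28 is known to bring together, which remove methyl groups from the sterol ring, had lower ratios than ERG28 on every array. On arrays 1 to 3 ERG25 and ERG26 were positive, as ERG28 was. ERG25, the methyl sterol oxidase, was at -0.43 and -0.42 on arrays 4 and 5, against 0.31, 0.07 and 0.18 on arrays 1 to 3. ERG26, the decarboxylase, was at -0.16 and 0.01 on arrays 4 and 5, against 0.11, 0.07 and 0.10 on arrays 1 to 3. ERG27, the ketoreductase, was at -0.57 and -0.65 on arrays 4 and 5, against -0.39, -0.14 and -0.29 on arrays 1 to 3. ERG27 therefore had the most negative ratio of the sterol genes on arrays 4 and 5 and a negative ratio on 5 of 5 arrays, beside the most positive for ERG28. The 5-array estimate of ERG27 was -0.40 ± 0.11 (SE, limma adjusted p = 0.0822), which did not pass. In a fit with an added term for the set of arrays it did, at -0.43 ± 0.07 (SE, limma adjusted p = 0.00976). That fit called 29.7% of ORFs.

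The last steps methylate, isomerise and desaturate the side chain and ring. ERG6, the sterol methyltransferase, was at 0.40 and 0.36 on arrays 4 and 5, against 0.22, 0.23 and 0.39 on arrays 1 to 3 (5-array estimate 0.32 ± 0.08, SE, limma adjusted p = 0.0751). ERG3, a desaturase, was at -0.31 and -0.25 on arrays 4 and 5, against 0.12, -0.12 and -0.09 on arrays 1 to 3. ERG6 was positive throughout, whereas ERG3 was negative on 4 of 5 arrays. ERG5, the other desaturase, was at 0.41 and 0.54 on arrays 4 and 5, against -0.15, 0.11 and -0.02 on arrays 1 to 3. ERG4, the final reductase, was at 0.06 and 0.06 on arrays 4 and 5, against 0.01, -0.35 and -0.31 on arrays 1 to 3. In ERG5 and ERG4 both values of arrays 4 and 5 lay above those of arrays 1 to 3.

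Sterol esters are made by the acyltransferases ARE1 and ARE2, which differed on every array that measured both. ARE1 was at -0.47 on array 4, against -0.09, -0.40 and -0.51 on arrays 1 to 3. Its table value for array 5 is missing, while the scanner file of that array gives -0.40 from an unflagged spot. ARE2 was at 0.41 and 0.32 on arrays 4 and 5, against 0.56, 0.23 and 0.30 on arrays 1 to 3. ARE1 was negative on 4 of 4 arrays and ARE2 positive on 5 of 5. ARE1 minus ARE2 averaged -0.74 ± 0.12 (SD, n = 4 arrays), with 4 of 4 differences between -0.87 and -0.62. Neither gene alone passed: ARE1 had -0.38 ± 0.13 (SE, 4 arrays, limma adjusted p = 0.152) and ARE2 had 0.35 ± 0.08 (SE, limma adjusted p = 0.0675). In RefSeq, 298 of the 1833 bases of ARE1 overlap the ORF YCR050C, and the spot may not separate them.

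**Figure D2:**
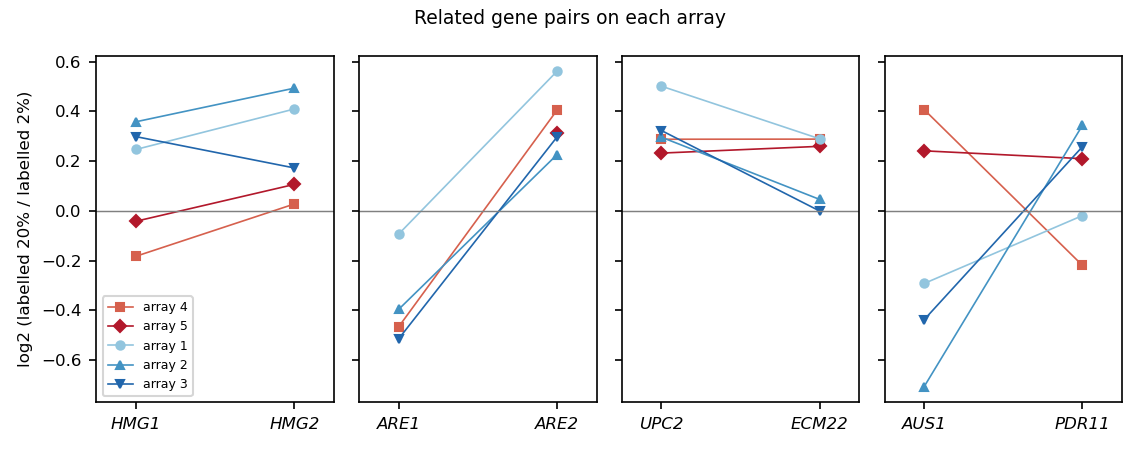
Each panel is a pair of related genes, with a line per array joining their log2 ratios (vertical axis, RNA labelled 20% over RNA labelled 2%), red for arrays 4 and 5 and blue for arrays 1 to 3. All 4 lines of ARE1 and ARE2 climb from below 0 to above 0, while those of AUS1 and PDR11 cross.

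Of the regulators, UPC2 was at 0.29 and 0.23 on arrays 4 and 5, against 0.50, 0.30 and 0.32 on arrays 1 to 3. ECM22 was at 0.29 and 0.26 on arrays 4 and 5, against 0.29, 0.05 and -0.0003 on arrays 1 to 3. UPC2 was positive on 5 of 5 arrays and ECM22 was near 0 on arrays 2 and 3. The 5-array estimates were 0.32 ± 0.08 for UPC2 (SE, limma adjusted p = 0.0744) and 0.17 ± 0.09 for ECM22 (SE, limma adjusted p = 0.258). UPC2 minus ECM22 averaged 0.15 ± 0.16 (SD, n = 5 arrays), positive on arrays 1 to 3 and just below 0 on arrays 4 and 5. With the scanner ratios it was positive on 5 of 5 (0.21 ± 0.08, SD). SUT1, a factor known to promote sterol uptake, was at 0.57 and 0.10 on arrays 4 and 5, against -0.22, 0.10 and -0.30 on arrays 1 to 3, with its highest value on array 4.

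AUS1 and PDR11 encode ABC transporters that bring sterols into the cell under anaerobic conditions. AUS1 was at 0.41 and 0.24 on arrays 4 and 5, against -0.29, -0.71 and -0.44 on arrays 1 to 3. It was positive in one set and negative in the other, and was the only sterol gene to run that way (3.45% of 29, against 8.82% of ORFs). PDR11 was at -0.22 and 0.21 on arrays 4 and 5, against -0.02, 0.34 and 0.26 on arrays 1 to 3. Its sign differed between arrays 4 and 5 themselves. AUS1 minus PDR11 averaged -0.27 ± 0.65 (SD, n = 5 arrays), a spread larger than the mean.

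The sets of arrays were then compared directly, as arrays 4 and 5 minus arrays 1 to 3. This limma fit had a term for the set of arrays beside those for glucose label and dye. The difference was negative for 9 of 9 mevalonate-step genes and 3 of 3 squalene-step genes, with medians of -0.25 and -0.39, and for 48.7% of all ORFs. Most of these were uncalled, and some turned positive under alternatives: IDI1 and ERG20 without replicate 2 or 5 (0.08 and 0.07), MVD1 without replicate 3 or 4 (0.01 and 0.02), IDI1 and MVD1 with scanner ratios (0.02 and 0.0017) and MVD1 after normexp and loess (0.02). Without replicate 3, ERG9 turned as well. Among all 24 synthesis genes it was negative for 20. The median over the 31 sterol genes was -0.18, against 0.01 over all ORFs. Single genes passed no more often than others did, with 4 of 31 called (12.9%, against 12.8% of 5447 ORFs). Of these, 1 was higher and 3 were lower, against 6.61% and 6.17% of ORFs. At an unadjusted p below 0.05 limma gave 2 higher and 6 lower, together 25.8% of the sterol genes against 31.6% of ORFs.

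The 3 genes that were lower on arrays 4 and 5 each stand at a different stage. ERG10 differed by -0.58 ± 0.13 (SE, limma adjusted p = 0.0393), ERG1 by -0.66 ± 0.13 (SE, limma adjusted p = 0.0302) and ERG25 by -0.60 ± 0.13 (SE, limma adjusted p = 0.0423). AUS1 was higher on arrays 4 and 5, by 0.85 ± 0.14 (SE, limma adjusted p = 0.019). ERG11 had a difference of -0.61 ± 0.17 (SE) that did not pass (limma adjusted p = 0.069). All 4 calls were lost on leaving out replicate 2, 4 or 5, with limma adjusted p from 0.147 to 0.593, and with arrays 4 and 5 averaged as 1 replicate (0.0871 to 0.262). Without replicate 1 the count was 4 higher and 10 lower of 29, which is 48.3% in a setting that called 46.8% of 4751 ORFs.

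For several spots the ratio on array 5 depended on how intensities were turned into ratios. ERG25 was at -0.42 in the deposited table, at 0.34 in the scanner file and at -0.33 after normexp and loess of the intensities. ERG11 was at -0.46, 0.05 and -0.43 in the same order, and ERG1 at 0.05, 0.38 and 0.07. For these 3 genes the table and the scanner ratio stood more than 0.2 apart, and for the other 27 with a value on array 5 they did not. ERG3 was at -0.25 in the table and -0.11 in the scanner file, but at -0.50 after normexp and loess. On array 4, 0 of 31 sterol genes differed by that much. With scanner ratios the set difference of ERG25 was -0.27 (limma adjusted p = 0.461) and that of ERG1 was -0.47 (limma adjusted p = 0.0752), and neither passed. ERG10 and AUS1 kept their calls there (limma adjusted p = 0.0394 and 0.0174).

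**Figure D3:**
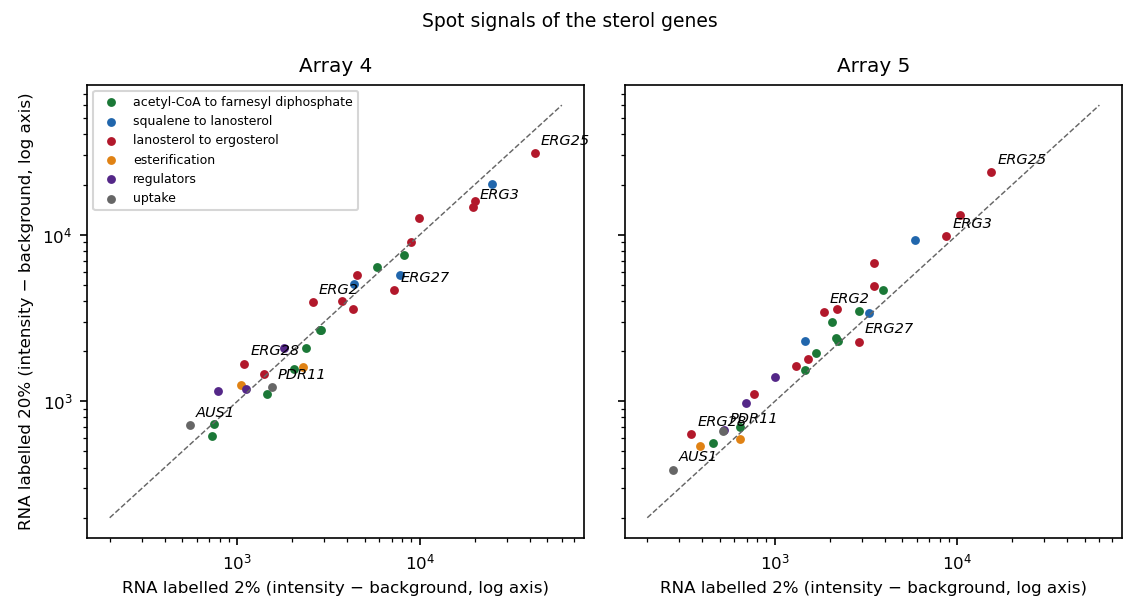
Points are the sterol genes' spots on array 4 (left) and array 5 (right), coloured by step, with background-subtracted intensity of the RNA labelled 20% on the vertical axis and of the RNA labelled 2% on the horizontal axis, both logarithmic, and a dashed line of equality. ERG25, at the upper right, lies below the line on array 4 and above it on array 5, before any normalization. On array 5 all the spots but those of ERG27 and ARE1 lie above the line.

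The spots of the sterol genes were well above background. The lowest was 6.59 times its local background on array 4 (HMG1) and 6.46 times on array 5 (PDR11), and 0 of them carried a flag. Background-subtracted intensities ran from 548 to 42550 on array 4 and from 275 to 23771 on array 5. These depend on the printed DNA and do not rank the genes by RNA level. ERG25 had 30805 units in the RNA labelled 20% and 42550 in the RNA labelled 2% on array 4, and 23771 and 15335 on array 5. The medians over the sterol genes, before normalization, were 2675 and 2856 on array 4 and 2285 and 1676 on array 5. AUS1 had 719 and 548 units on array 4 and 389 and 275 on array 5, in the same order of labels.

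Without a test, both values of arrays 4 and 5 lay below all 3 of arrays 1 to 3 for 13 of 29 sterol genes, which is 44.8% against 28.7% of ORFs. They lay above for 3 (ERG5, ERG4 and AUS1), which is 10.3% against 30.2% of ORFs. Negative values on arrays 4 and 5 with positive values on arrays 1 to 3 were found for 4 of 29 (ERG10, HMG1, ERG12 and ERG25), 13.8% against 9.76% of ORFs. Over the sterol genes the arrays correlated at 0.88 for arrays 4 and 5, at 0.63 to 0.92 among arrays 1 to 3 and at 0.31 to 0.57 between the sets, as a description over 29 to 31 genes that share their arrays.

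**Figure D4:**
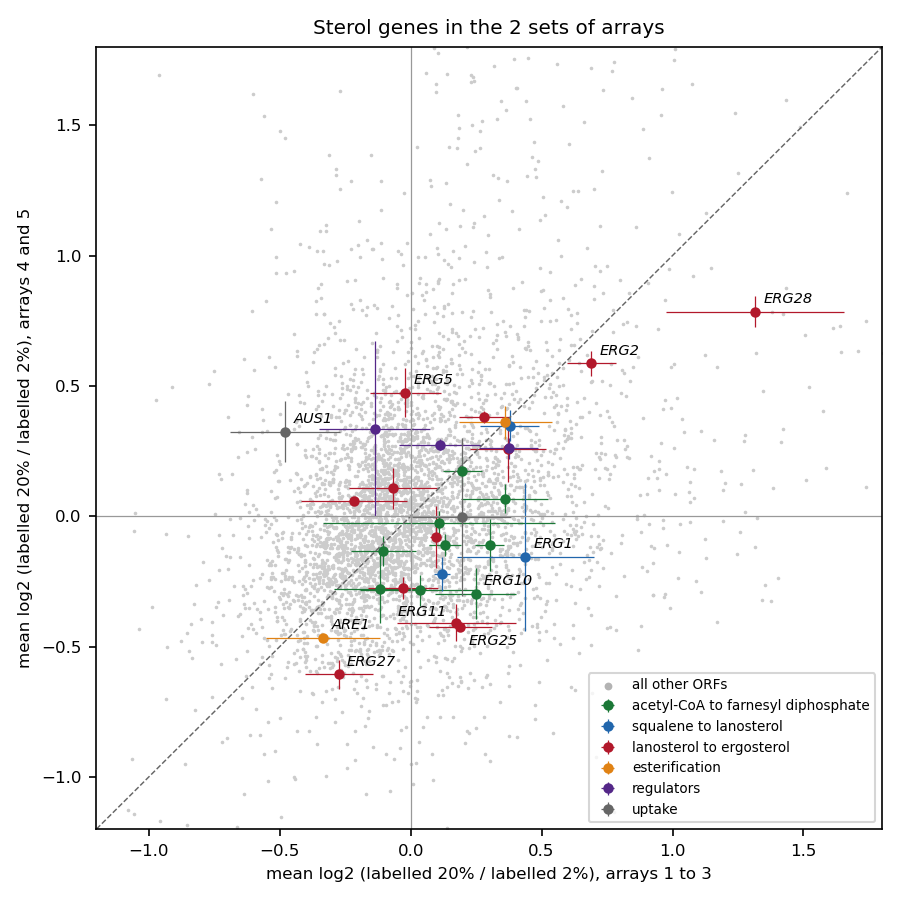
Each coloured point is a sterol gene, with its mean log2 ratio on arrays 4 and 5 on the vertical axis and on arrays 1 to 3 on the horizontal axis, and bars of 1 SD. ARE1 has 1 value on arrays 4 and 5 and so no vertical bar. Grey points are all other ORFs with 5 values that fall within the axes, and the dashed line marks equal ratios. ERG10, ERG1, ERG11 and ERG25 lie right of 0 and below it, and AUS1 lies left of 0 and above it.

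Within arrays 4 and 5 alone, limma called 18 of 30 sterol genes (60%, against 54.4% of 5371 ORFs), 10 higher and 8 lower (27.9% and 26.6% of ORFs). Higher were ERG9, ERG24, ERG28, ERG6, ERG2, ERG5, ARE2, UPC2, ECM22 and AUS1, and lower were ERG10, ERG13, ERG8, ERG7, ERG11, ERG25, ERG27 and ERG3. The sizes ran from -0.61 ± 0.05 for ERG27 (SE, limma adjusted p = 0.00271) to 0.79 ± 0.05 for ERG28 (SE, limma adjusted p = 0.00148). Within arrays 1 to 3, 4 of 30 were called (13.3%, against 17.4% of 5164 ORFs), 3 higher and 1 lower (11.5% and 5.96% of ORFs). ERG28 (1.37 ± 0.15, SE, limma adjusted p = 0.000158), ERG2 (0.72 ± 0.14, adjusted p = 0.00443) and ERG1 (0.51 ± 0.14, adjusted p = 0.0247) were higher, and AUS1 (-0.54 ± 0.14, adjusted p = 0.0201) was lower. ERG28 and ERG2 were thus higher in both sets, and AUS1 was called in opposite directions. Each of these fits has 1 residual degree of freedom and leans on the spread shared over ORFs, which in arrays 4 and 5 is small because those arrays are nearly alike.

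With a term for the set of arrays added to the 5-array fit, 8 sterol genes were higher (ERG9, ERG24, ERG28, ERG6, ERG2, ERG5, ARE2 and UPC2) and ERG27 was lower. Together that is 29% of the 31 sterol genes, against 29.7% of 5447 ORFs, so they passed no more often than others did. Calls over all ORFs were 1618 in that fit, so counts were larger in that fit throughout the genome. The estimates for genes other than ERG28 and ERG2 stayed small, from 0.24 for ERG5 to 0.37 for ERG9 on the higher side.

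Other genes of sterol and isoprenoid metabolism were read from a second list. Of 47 such ORFs, covering sterol transport, ester breakdown, reductase degradation, regulators and prenyl enzymes, 43 were tested, with 2 called higher and 0 lower by limma (4.65%, against 3.69% of ORFs). At an unadjusted p below 0.05 there were 11 (25.6%, against 28.5% of ORFs). DAP1, a heme-binding protein that supports Erg11, was at 0.58 on array 4, against 0.70, 1.08 and 0.78 on arrays 1 to 3 (estimate 0.88 ± 0.11, SE, 4 arrays, limma adjusted p = 0.0422). NPC2, a sterol-binding protein of the vacuole, was at 0.42 and 0.42 on arrays 4 and 5, against 0.47, 0.48 and 0.69 on arrays 1 to 3 (0.49 ± 0.08, SE, limma adjusted p = 0.043). DAP1 and NPC2 were positive on every array that measured them. The call of NPC2 was lost on leaving out any 1 array (limma adjusted p from 0.0632 to 0.192). Those fits called from 0 to 91 of all ORFs, against 201 with all 5 arrays. DAP1 has no value on array 5, and without replicate 5 its call was lost (limma adjusted p = 0.152) at an unchanged estimate of 0.88. That fit called 3 of 4953 ORFs. Without any other array DAP1 fell below 4 values and was not fitted. Both calls were also lost without the decimal repair (limma adjusted p = 0.101 each) and with arrays 4 and 5 averaged as 1 replicate (0.131 for NPC2 and 0.118 for DAP1). Those settings called 1 of 5447 and 3 of 5089 ORFs, so nearly every call was lost there. MOT3, a repressor of ERG genes, was at -0.66 and -0.82 on arrays 4 and 5, against -0.97, -0.45 and -0.35 on arrays 1 to 3, and missed the threshold (-0.65 ± 0.12, SE, limma adjusted p = 0.0505). PRY1, a secreted sterol-binding protein (-0.93, limma adjusted p = 0.0605), COQ2 of ubiquinone synthesis (0.40, limma adjusted p = 0.063) and the lipid transfer protein OSH6 (0.71, 4 arrays, limma adjusted p = 0.0777) did not pass either.

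Between the sets, 2 of these 43 ORFs were called (4.65%, against 12.8% of ORFs). NCR1, the vacuolar sterol transporter that works with Npc2, was at -0.21 and -0.19 on arrays 4 and 5, against 0.61, 0.62 and 0.98 on arrays 1 to 3. PRY2, a secreted sterol-binding protein, was at 1.18 and 1.41 on arrays 4 and 5, against -0.78, -0.49 and -0.45 on arrays 1 to 3. Each had opposite signs in the 2 sets, NCR1 with a difference of -0.92 (limma adjusted p = 0.024) and PRY2 with one of 1.84 (limma adjusted p = 0.00424). PRY2 kept its call in 14 of 14 alternatives. These include the table without the decimal repair, where its own values change and its difference was 13.3. NCR1 lost it without replicate 2 (limma adjusted p = 0.101), 4 (0.291) or 5 (0.0691), without the decimal repair (0.0664) and with arrays 4 and 5 averaged as 1 replicate (0.0841).

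Genes of stationary phase were read because both cultures came from an overnight culture. Of 12 such genes 8 were tested, and limma called 4 higher and 0 lower between the sets (50%, against 12.8% of ORFs called and 6.61% called higher). The list's median ratio was 0.48 and 0.61 on arrays 4 and 5, against -0.11, 0.03 and 0.16 on arrays 1 to 3. SNZ1, SNO1, HSP26 and GRE1 were higher on arrays 4 and 5 in the limma fit (differences of 1.26 to 2.33). Of the 4 not called, SPG3 and SPG5, named after their values were seen, had negative differences (-0.31 and -0.65). SNO1 kept its call in 14 of 14 alternatives, whereas HSP26 lost it without replicate 4 (limma adjusted p = 0.076), SNZ1 and GRE1 without replicate 2 (0.0797 and 0.0759) or 4 (0.127 and 0.192), and GRE1 without the decimal repair (0.0933). FMP45 was the only one called over 5 arrays, at -0.84 ± 0.10 (SE, 4 arrays, limma adjusted p = 0.0422). Its call was lost without the repair (limma adjusted p = 0.101) and with arrays 4 and 5 averaged (0.107). Those settings called 1 of 5447 and 3 of 5089 ORFs. FMP45 has no value on array 5, and without replicate 5 the call was lost (limma adjusted p = 0.152) at an unchanged estimate. That fit called 3 of 4953 ORFs. Without any other array FMP45 was not fitted. Whether these genes marked stationary phase cells here, rather than another state of the cells, was not tested. Nor was their part in the sterol gene differences tested.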

How the data were processed

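The deposited table holds the authors' log2 ratio of the channels for each spot, centred array by array close to 0. Its software: not given in the sources used here. Scanner files, deposited for arrays 4 and 5, hold per the file headers the median intensity of each spot and its local background, and log2 ratios. On arrays 4 and 5, 258 and 262 table values of 10 or more in size were about 10 times the scanner ratio and were divided by 10. None of the sterol genes had such a value, so the repair reaches them only through the spread shared over ORFs. Among genes of the other lists with a called set difference, it changed values of PRY2, ALD6, OLE1, ACC1, SNO1, SNZ1 and HSP26. Without the repair, their set differences ran from -20.5 (ALD6) to 22.6 (SNO1). Set against the scanner files, the table runs as 2% over 20% glucose by the dye labels on both arrays, so all values were multiplied by -1. Scale and direction of arrays 1 to 3 were taken to be the same, since no scanner files of those arrays were used here. Spots of 1 ORF were averaged.

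limma 3.58.1 (R 4.3.3, lmFit then eBayes) was fitted to the 5447 of 6205 ORFs measured on 4 or more arrays, with terms for glucose label and dye, plus a term for the set of arrays for the difference between sets. Tests were two-sided, with Benjamini-Hochberg adjustment across every ORF fitted and a threshold of 0.05. The number of arrays limits the precision.

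The sterol genes and all other lists were chosen with earlier results of these data known. All 31 sterol genes are named; of the other lists, members that passed the 5-array fit or the set difference and up to 4 others with the smallest p. Names come from RefSeq (assembly R64); chromosomes and lengths are those of the scanner files, and no genome build is named, so no positions are given. Promoter motifs and protein alignments were planned and not run, because no sequences were used here. Alternatives tried were each array left out, no dye term, stricter and looser filters on missing values, the table without the repair, scanner ratios, normexp (offset 50) with loess, dim spots left out, arrays scaled to one spread, a set term, and, chosen after seeing the data, arrays 4 and 5 as 1 replicate.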

Additional observations from a re-analysis of the deposited data

Results flagged for a closer look

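Among the sterol genes, 4 had ratios that differed between the sets of arrays in the limma fit (arrays 4 and 5 minus arrays 1 to 3): ERG10 by -0.58, ERG1 by -0.66, ERG25 by -0.60 and AUS1 by 0.85. In the deposited table the signs of ERG25, ERG10 and AUS1 in the 2 sets were opposite on every array, whereas the scanner file gave ERG25 0.34 on array 5 and a set difference of -0.27 (limma adjusted p = 0.461). ERG1 was positive on array 5 as well as on arrays 1 to 3. As given above, none of these 4 calls held without replicate 2, 4 or 5.

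Of the other sterol-related genes, NCR1 differed by -0.92 and PRY2 by 1.84. Among genes of acetyl-CoA supply and fatty acid synthesis, ALD6, the cytosolic acetaldehyde dehydrogenase, differed by -2.68, OLE1, the fatty acid desaturase, by -1.90, ACC1, the acetyl-CoA carboxylase, by 1.34, ACS2, an acetyl-CoA synthetase, by 0.84, and the elongases ELO1 and SUR4 by 0.84 and 0.75. Of the stationary phase genes, SNO1 differed by 2.33, HSP26 by 1.43, SNZ1 by 1.31 and GRE1 by 1.26.

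NPC2 stood at 0.69 on array 3, apart from its other 4 values of 0.42 to 0.48. This was the only such gap among 46 named genes with 4 or 5 values, where chance flags about 1 in 20.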

How the results depend on the processing

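Over 5 arrays, leaving out each array gave 0 to 91 calls over all ORFs and 0 to 2 sterol genes higher, against 201 and 2. Without the dye term there were 919 calls, with 7 sterol genes higher and 1 lower (25.8% of them, against 16.9% of ORFs). The set term gave 1618 calls, with 8 and 1 (29% of the sterol genes, against 29.7% of ORFs). Without the decimal repair there was 1 call, with 0 sterol genes higher. Scanner ratios gave 147 calls with 1 higher, and arrays 4 and 5 as 1 replicate gave 3 with 0 higher. For the set difference, leaving out each array gave 96 to 2225 calls, 0 to 4 sterol genes higher and 0 to 10 lower, against 696, 1 and 3; where this left 1 array in a set, that array was assumed to vary like the others. The count was 1183 with 2 higher without the dye term, 326 with 0 lower without the repair, 1 lower with scanner ratios, and 257 with 0 and 0 with arrays 4 and 5 as 1 replicate. In settings of the 5-array fit with 0 sterol calls, 6 to 9 sterol genes had an unadjusted limma p below 0.05, against 10 of 31 in the main fit. For the set difference without replicate 2 it was 4 of 30, against 8 of 31. In the main fits 28.5% and 31.6% of all ORFs had such a p. The shares of all ORFs with such a p in the other settings were not computed. Within arrays 1 to 3, 9 of 30 sterol genes were higher and 1 lower without the dye term, which called 1260 of 5164 ORFs. Within arrays 4 and 5, there were 1279 calls over 5371 ORFs without the repair, with 4 sterol genes higher and 3 lower. Scanner ratios gave 2137 calls there, with 5 and 3. The cause of these shifts was not tested; without the repair, none of the sterol genes' own values change. The other filters and scalings kept these counts within 1.5 times, and no called value changed sign. Signs of uncalled values turned in 58 cases. Each value is already a ratio of both labels on 1 array. No paired analysis was possible because the arrays form 1 group, with no second group of the same replicate numbers to pair it with. Without the repair ERG28 and ERG2 (adjusted p = 0.101 each), ERG10 (0.0687), ERG1 (0.0596) and ERG25 (0.0778) were not called; nor were ERG1 without the dye term (0.0746) and ERG25 after normexp and loess (0.0512). ERG28 kept its call in 8 of 15 alternatives and ERG2 in 9 of 15 (adjusted p from 0.00243 to 0.14 and from 0.00255 to 0.159).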

Other observations

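Acetyl-CoA feeds both sterols and fatty acids. Of 12 genes for acetyl-CoA supply and fatty acid synthesis, 11 were tested, and limma called 0 over 5 arrays. At an unadjusted p below 0.05 there were 2 (18.2%, against 28.5% of ORFs). Between the sets limma called 6 (54.5%, against 12.8% of ORFs). ALD6 was at -1.97 and -2.01 on arrays 4 and 5, against 0.78, 0.64 and 0.71 on arrays 1 to 3. OLE1, which uses oxygen as the sterol desaturases do, was at -1.25 and -1.35 on arrays 4 and 5, against 0.68, 0.96 and -0.0001 on arrays 1 to 3. ACC1 ran the other way, at 1.40 and 1.44 on arrays 4 and 5, against -0.29, 0.39 and -0.03 on arrays 1 to 3. ACS2 was positive on 5 of 5 arrays, at 0.97 and 1.00 on arrays 4 and 5, against 0.03, 0.24 and 0.11 on arrays 1 to 3. ACS1, the other synthetase, had an estimate of 0.50 (4 arrays, limma adjusted p = 0.0716).

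Cell wall mannoprotein genes of the DAN and TIR families, induced without oxygen and known as targets of Upc2, gave few values. Of 8 such genes 4 were tested, and limma called 0 over 5 arrays and 0 between the sets. At an unadjusted p below 0.05 there were 2 over 5 arrays (against 28.5% of ORFs) and 0 between the sets (against 31.6%). TIR2 had an estimate of 0.44 (limma adjusted p = 0.0842) and TIR1 of 0.34 (limma adjusted p = 0.112).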
